A study of Drosophila melanogaster with 8 samples.

Results

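Binding of Bicoid (Bcd) was described across a 70 kb window of the X chromosome, between 255 and 325 kb on build dm3, which was drawn for the achaete-scute complex. The members were all peaks of the wild-type and zelda mutant lists that overlapped this window by at least 1 bp. There were 9 of them among the 6541 peaks of both lists, namely 7 of the 3891 wild-type peaks and 2 of the 2650 mutant peaks. The choice used position alone, but the window was picked with the missing mutant peaks already known, so the counts below are descriptions and carry no test.

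The data came from chromatin immunoprecipitation and sequencing (ChIP-seq) of Drosophila melanogaster embryos aged 1 to 3 h after egg laying. Of the 8 samples, 2 were Bcd ChIP and 2 were input of wild-type embryos, and 2 were Bcd ChIP and 2 were input of zelda mutant embryos. The antiserum was a rabbit polyclonal one against the whole Bcd protein. The mutant allele, and the way in which mutant embryos were obtained, are not given in the sources used here. A list of Bcd peaks holds no reading of zelda itself, so the genotype label was not checked. The authors deposited 1 peak list per genotype, without values per replicate, so no spread between replicates could be given. Intervals of tags, densities and their ratios cover the counting error of tags only. The Wilson intervals given for shares of peaks count each peak as independent and cover no spread between replicates.

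Bcd is a homeodomain transcription factor that forms a gradient from the anterior pole of the embryo and switches on patterning genes. Zelda is a zinc finger factor supplied by the mother to the whole embryo, and it opens chromatin at many of the first genes to be transcribed. The comparison of genotypes asks where Bcd is bound when Zelda is missing. The achaete-scute complex holds 4 genes for basic helix-loop-helix proteins that make cells competent to become neural precursors. Achaete (ac) and scute (sc) set up the proneural clusters of sensory bristles, and sc also acts in the early embryo as a counter of X chromosomes in sex determination, under the name sisterless b. Lethal of scute (l(1)sc) acts in the neuroectoderm of the embryo, and asense (ase) acts in the neural precursors once they have formed.

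The order of the genes was read from the RefSeq gene table, which matched all 4 symbols but belongs to Release 6 and not to dm3. In that table the order along X is y, the lncRNA yar, ac, 3 lncRNA genes, sc, l(1)sc, Pgcl, ase and Cyp4g1. The y gene, yellow, is needed for dark cuticle pigment, and Cyp4g1 encodes a cytochrome P450 of cuticular hydrocarbon synthesis. The stretch from ac to ase in Release 6 is longer than the 70 kb window, while the stretch from ac to l(1)sc is shorter. Whether the window holds ase, as its definition says, is therefore in doubt. Positions were not carried from Release 6 to dm3, so no peak was assigned to a gene, and peaks are called 1 to 7 in order along the window. Whether a peak lies at a promoter, in a gene or between genes was not analysed here.

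Wild-type embryos had 7 Bcd peaks in the window and zelda mutant embryos had 2, both of which lay on a wild-type peak. Peaks 2 and 3 of wild type had a mutant peak, and peaks 1, 4, 5, 6 and 7 had none. The unmatched peaks included peaks 4 and 5, the ones with the highest and the next highest score of the window. The empirical false discovery rate (FDR) given by the peak caller MACS was 5.55 and 5.71% for peaks 2 and 3. It was 9.79 and 9.61% for the mutant peaks on them. With a limit of 5% only peaks 4 and 5 and 0 mutant peaks remained, and 0 peaks were shared. The share of X peaks within this limit was not computed, and the shares below are without it. Beyond the window, the mutant peak from 416008 to 417898, whose score ranked 61 among 310 on X, had an FDR of 8.07%. A mutant peak was overlapped by 39.6% of the whole wild-type list, by 45.5% of its peaks on the chromosome arms and by 44.7% of the 472 on X (Wilson 95% interval 40.3 to 49.2), window included. The 2 of 7 peaks of the window, or 28.6%, are too few to be set apart from these shares. Among mutant peaks, 62.3% of the whole list, 74.4% on the arms and 71.9% of the 310 on X lay on a wild-type peak.

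**Figure D1:**
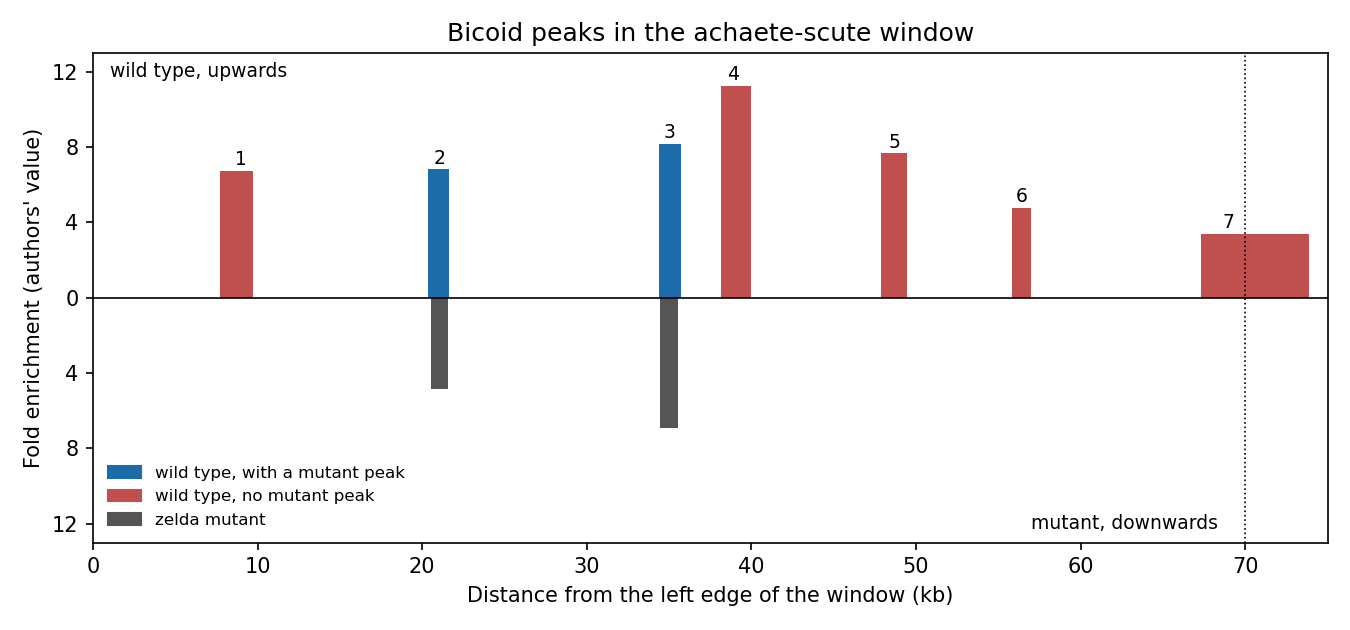
Bcd peaks along the window, with the distance from its left edge in kb on the x axis and the authors' fold enrichment on the y axis, wild type upwards and zelda mutant downwards. Each bar spans a called peak, the dotted line is the right edge, and the highest bar, peak 4 with a fold of 11.25, has no mutant bar below it while its neighbour peak 3 has one.

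Bcd peaks stood closer together here than along most of the X chromosome in wild type. The 7 peaks compare with 1.47 peaks per 70 kb over X up to its last peak, and covered 17.0% of the window against 4.88% of X. Neighbouring summits were 3.9 to 13.9 kb apart, where the median distance on X was 19.1 kb. In the mutant list, 2 peaks compare with 0.969 per 70 kb, and 3.13% of the window was covered against 2.10% of X. The window was thus richer in peaks than the X average in both lists, but it was picked with results of these data already known.

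Peak 1, the leftmost, lay from 262714 to 264724 with its summit at 263992. It held 878 ChIP tags (exact Poisson 95% interval 821 to 938) over 2011 bp, a density of 11.2 RPKM (10.4 to 11.9), which is tags per kb of called peak and per 1000000 filtered ChIP tags. The authors' fold enrichment, the ChIP signal over the local background expected from the control, was 6.75, and the MACS score, −10 times the log10 of the p-value, was 191.25. Its fold ranked 126, its score 188 and its density 224 among the 472 wild-type peaks of X, so it stood higher by fold than by density. Its FDR was 7.14%. No mutant peak overlapped it, and the nearest one began 10.8 kb to the right.

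Peak 2 lay from 275334 to 276636 and was the first to have a mutant partner. In wild type it held 610 tags over 1303 bp, with a density of 11.96 RPKM (11.0 to 12.9), a fold of 6.83 and a score of 239.63. The mutant peak, from 275545 to 276595, held 140 tags (118 to 165) over 1051 bp, with a density of 13.2 RPKM (11.1 to 15.6), a fold of 4.83 and a score of 134.24. The mutant peak lay wholly inside the wild-type one, starting 211 bp further in on the left and ending 41 bp earlier on the right. The summits, at 276051 and 276092, were 41 bp apart.

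Peak 3 lay from 289365 to 290700 and had the other mutant partner. It held 752 tags over 1336 bp in wild type, with a density of 14.4 RPKM (13.4 to 15.4), a fold of 8.17 and a score of 233.13. The mutant peak, from 289424 to 290561, held 171 tags (146 to 199) over 1138 bp, with a density of 14.9 RPKM (12.8 to 17.35), a fold of 6.92 and a score of 198.84. Again the mutant peak lay inside the wild-type one, and the summits at 290001 and 289969 were 32 bp apart. By fold this mutant peak ranked 22 among the 310 mutant peaks of X, and the mutant peak on peak 2 ranked 99.

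At both shared places, per filtered ChIP tag, the interval of the density ratio between the lists held 1, but the ratio depends on the scaling. The mutant density was 1.11 times the wild-type one at peak 2 (interval 0.915 to 1.33) and 1.04 times at peak 3 (0.875 to 1.23). Relative to the tags inside arm peaks of each list, in place of all filtered tags, the ratios were 2.28 and 2.14. Each density is taken over the called peak, which was shorter in the mutant by a factor of 0.807 at peak 2 and 0.852 at peak 3. Set over the wild-type length, with tags outside the mutant peak not counted, the ratios were 0.893 (0.738 to 1.07) and 0.885 (0.745 to 1.05). Across the 201 places on X with a single peak in each list, the median length ratio was 0.835, the median density ratio 1.21 and the median distance of summits 39 bp. The interquartile range of the density ratio was 1.08 to 1.34, which holds the value at peak 2, while that at peak 3 lay below it. For the ratio over the wild-type length the median was 0.962 and the interquartile range 0.7 to 1.21, which holds both values. The fold enrichment was lower in the mutant list at both places, but each list was scaled to its own libraries, so the folds are given side by side only.

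Peak 4 lay from 293176 to 294997, with its summit at 293901, and was the strongest Bcd peak of the window. It held 1158 tags (1092 to 1227) over 1822 bp, a density of 16.2 RPKM (15.3 to 17.2), with a fold of 11.25, a score of 894.67 and an FDR of 0.38%. Its fold ranked 12, its density 30 and its score 43 among the 472 wild-type peaks of X. No mutant peak overlapped it, while peak 3, 2.48 kb to its left and with a lower fold and score, had one. The gap from peak 4 to that mutant peak was 2.61 kb.

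Strong wild-type peaks elsewhere mostly had a mutant peak. On the chromosome arms, 26 of the 31 wild-type peaks with a fold at least that of peak 4 overlapped a mutant peak, or 83.9% (67.4 to 92.9), so peak 4 was 1 of 5 that did not. By score, 193 of 262 arm peaks at or above peak 4 were overlapped, or 73.7% (68.0 to 78.6), and on X it was 32 of 43, or 74.4%. These shares describe the list that peak 4 was picked from and are not a test of it.

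**Figure D2:**
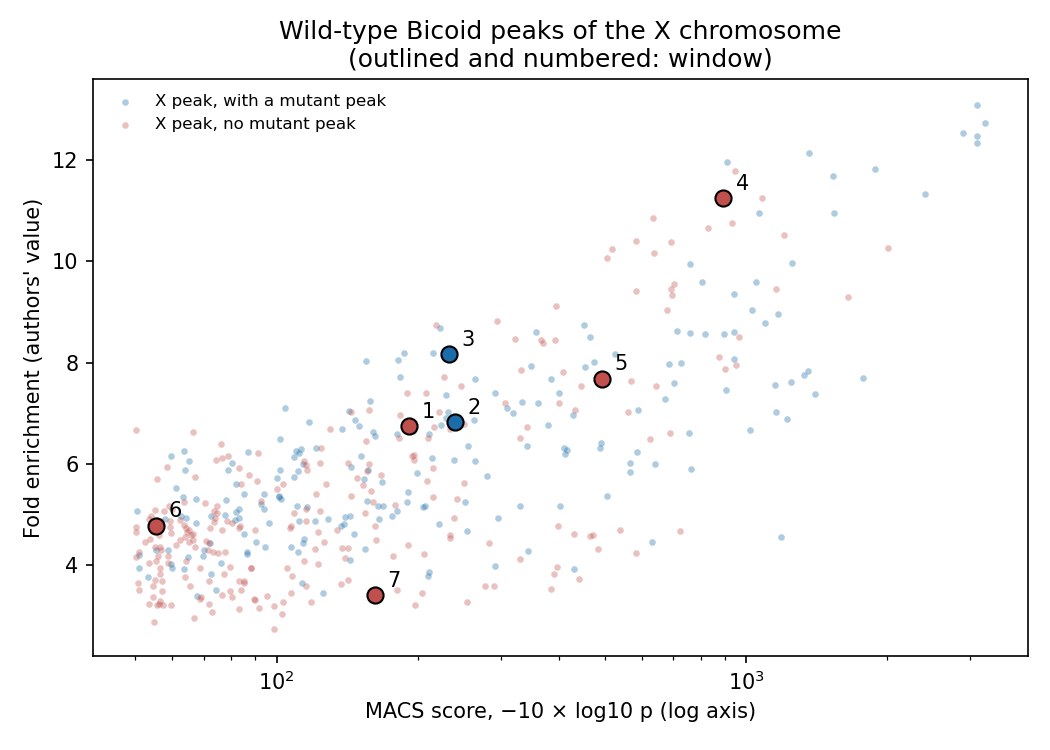
MACS score on a log x axis and the authors' fold enrichment on the y axis for the 472 wild-type Bcd peaks of X, blue where a mutant peak overlaps and red where none does. The 7 peaks of the window are outlined and numbered, and peak 4 lies at the upper right with a score of 894.67 and a fold of 11.25.

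Peak 5 lay from 302877 to 304449 and was the other strong peak without a mutant partner. It held 939 tags (880 to 1001) over 1573 bp, a density of 15.2 RPKM (14.3 to 16.25), with a fold of 7.68, a score of 493.16 and an FDR of 0.71%. The nearest mutant peak was 12.3 kb away. Among X peaks with a score at least that of peak 5, 51 of 84 had a mutant peak, or 60.7%, so peaks of this score without one were common.

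Peak 6 had the lowest score, density and tag count of the window, and peak 7 was the longest and had the lowest fold. Peak 6, from 310834 to 312015, held 436 tags (396 to 479), a density of 9.42 RPKM (8.56 to 10.35), with a fold of 4.78, a score of 55.38 and an FDR of 16.46%. The cutoff of the caller corresponds to a score of 50, so peak 6 only just entered the list. Peak 7, from 322342 to 328903, held 3634 tags (3517 to 3754) over 6562 bp, a density of 14.1 RPKM (13.7 to 14.6). Its fold was only 3.41, rank 444 of 472 on X, while its length ranked 8. The summit, at 323970, lay in the left part of the peak at 24.8% of its length, and 3903 bp of the peak ran past the right edge of the window. In the other 6 peaks the summit lay between 39.8 and 63.6% of the length, and lengths ran from 1182 to 2011 bp.

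**Figure D3:**
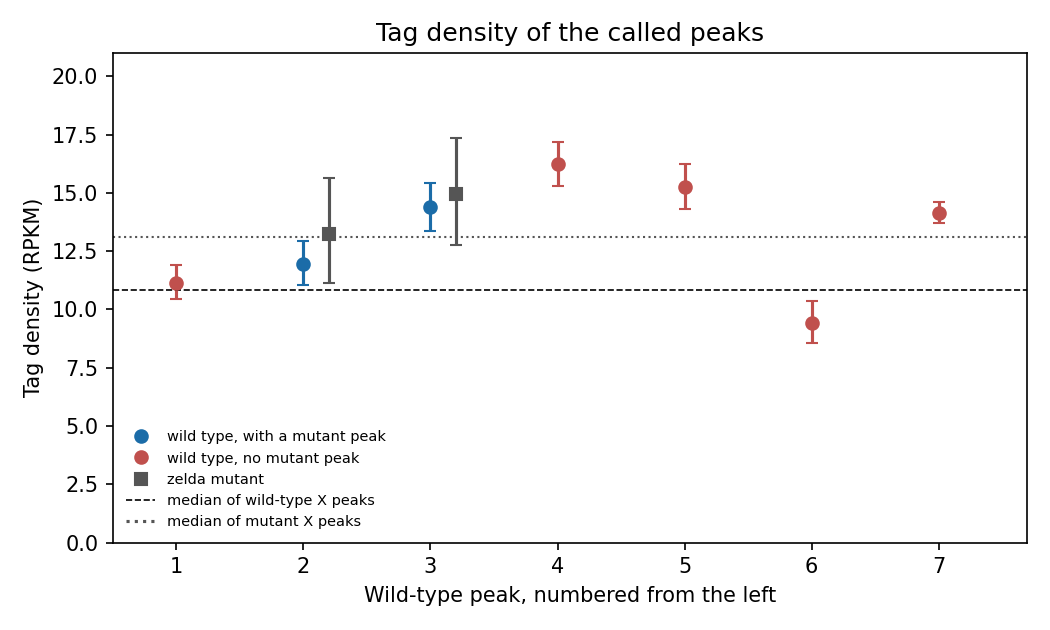
Tag density in RPKM on the y axis, over the called peak, for the 7 wild-type peaks (circles) and the 2 mutant peaks (squares, beside peaks 2 and 3), with exact Poisson 95% intervals. The dashed and dotted lines are the medians of the wild-type and mutant peaks of X, 10.8 and 13.1, and 6 of the 7 wild-type peaks lie above their line.

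Within wild type, the order of densities from the top was peak 4, 5, 3, 7, 2, 1 and 6. The interval of peak 6 lay below the other 6. The intervals of peaks 1 and 2 overlapped each other and lay below those of peaks 3, 4, 5 and 7. In that upper set neighbours in the order overlapped, and peak 4 lay above peak 7 without overlap. Having a mutant peak did not follow density or fold within the window. The peaks with a partner had folds of 6.83 and 8.17, and those without ran from 3.41 to 11.25. The median density of the 7 peaks was 14.1 RPKM, against 10.8 RPKM over the wild-type peaks of X (interquartile range 9.56 to 13.1), and 5 of the 7 exceeded the X median fold of 5.28.

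The mutant library was the shallower one, which limits what its list can show. After removal of duplicates the ChIP files held 39154546 tags in wild type and 10060479 in the mutant, a ratio of 0.257 of mutant to wild type. Tags of the mutant at places without a mutant peak are not in the list, so no level could be given there. If the tags of each wild-type peak were scaled by 0.257, peaks 4, 5 and 1 would hold 297.5, 241 and 226 tags, all above the 140 and 171 tags of the 2 mutant peaks in the window. Peak 6 would hold 112, below both, and peak 7 would hold 934. The scaled tags of peaks 2 and 3 would be 157 and 193. These are totals over called lengths. The lengths were 1822, 1573 and 2011 bp for peaks 4, 5 and 1 and 1051 and 1138 bp for the mutant peaks. By density peak 1, at 11.2 RPKM, was below both mutant peaks, at 13.2 and 14.9 RPKM, while peaks 4 and 5 were above both. The tags include the local background.

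Multiplied by the same ratio, the scores of peaks 2, 3, 4 and 5 stayed at or above 50, at 61.6, 59.9, 229.9 and 126.7. Peak 1 fell just short at 49.1, and peaks 6 and 7 came to 14.2 and 41.5. Of the 4 peaks that stayed above the cutoff, 2 had a mutant peak, and 2 did not. With a ratio of 0.447, that of the depths to which MACS scaled the lists, chosen after seeing the data, peaks 1 and 7 also stayed above it, at 85.6 and 72.3, so 6 peaks did and 4 of them had no mutant peak. On X, 103 of the 186 wild-type peaks that stayed at or above 50 with the ratio of 0.257 had a mutant peak, or 55.4% (48.2 to 62.3). The share on X with the ratio of 0.447 was not computed. The mutant peaks on peaks 2 and 3 had higher scores, 134.24 and 198.84, than the scaled ones, so the scaling is rough. Tags inside called peaks made up 11.9% of the wild-type and 6.63% of the mutant ChIP tags, and the part of this and of the depth in the missing peaks was not tested.

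**Figure D4:**
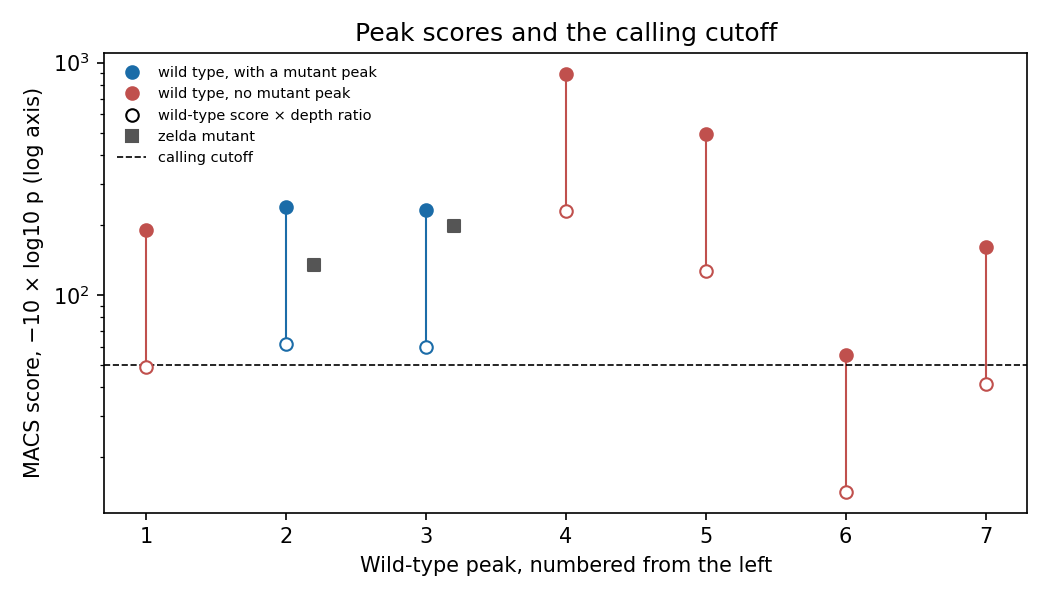
MACS score on a log y axis for the 7 wild-type peaks (filled circles), the same scores multiplied by the mutant to wild-type depth ratio of 0.257 (open circles) and the 2 mutant peaks (squares). The dashed line is the calling cutoff at 50, and the open circles of peaks 2, 3, 4 and 5 lie above it.

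Mutant peaks were absent from long stretches on both sides of the shared pair. To the right of the mutant peak on peak 3 no mutant peak was listed for 125.4 kb, up to 416007, and 5 wild-type peaks lay wholly in that stretch, 4 of them peaks 4 to 7. To the left of the mutant peak on peak 2 the stretch was 80.6 kb long and held 3 wild-type peaks, of which peak 1 was 1. Among the 309 stretches between neighbouring mutant peaks on X these ranked 52 and 81 by length, where the median was 22.3 kb, so longer ones were not rare.

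The nearest wild-type peaks beyond the edges of the window also lacked a mutant partner. Over the whole X chromosome, 211 of 472 wild-type peaks, or 44.7%, had one. On the left, the wild-type peak from 212853 to 217761 had a fold of 6.60, a score of 687.95 and a density of 11.4 RPKM. On the right, the one from 350560 to 351771 had a fold of 6.32, a score of 124.51 and a density of 10.4 RPKM. The nearest mutant peaks outside, from 193858 to 194988 and from 416008 to 417898, had folds of 3.78 and 5.0, and both lay on a wild-type peak.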

How the data were processed

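Each genotype has 1 peak list, deposited by the authors and cited by the labels of its Bcd ChIP samples. Bowtie2, MACS 1.4.2 and build dm3 are named in the submitters' processing notes. Per the file headers, MACS ran with a p cutoff of 1e-05 and a fragment size of 200 bp, kept at most 1 tag per position and scaled the larger dataset to the smaller. No source used here says how replicates were joined.

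The deposited columns, per the file headers, are the tag count, score, fold (a ratio to local background), FDR in percent, length and summit offset. Score, fold and FDR are the authors' values and describe peaks within a list.

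Density is tags divided by peak length and filtered ChIP tags. Positions are 1-based, and the summit is the start plus its offset minus 1. Peaks overlapping by at least 1 bp were called shared. Tag ratios have exact Clopper-Pearson 95% intervals conditional on their sum. Every peak of the window was named, by rule, with the nearest peaks outside. Members and alternatives were chosen with earlier results of these data known. The overlap and interval code was tested on simulated data. A planned motif search in promoters was not run, as promoter sequence was not used here. Calculations used Python 3.11.15, numpy 2.4.6, pandas 2.3.3, scipy 1.17.1 and matplotlib 3.10.9.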

Additional observations from a re-analysis of the deposited data

How the results depend on the processing

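Peaks 2 and 3 were the shared ones, and the count stayed at 2 of 7 when overlap had to cover 50% of both peaks. It was also 2 of 7 with summits at most 200 bp apart, with gaps of up to 1000 bp allowed and in a window widened by 10 kb on each side. These sharing rules left little room for change. The shared summits were 41 and 32 bp apart, and the shortest gap from an unmatched wild-type peak to the mutant list was 2.61 kb. For scores of at least 100 the count was 2 of 6, and for scores scaled by filtered depth 2 of 4. Chosen after seeing the data, an extension of 40 kb to the right gave 2 of 8. Scaling scores by 0.447, the mutant to wild-type ratio of the smaller of ChIP and control tags, left 6 peaks. Of these, 2 had a mutant peak and 4 did not, and the share on X at this ratio was not computed. This scaling too was added later. Limiting the FDR to 5% in the list counted left 2 wild-type peaks (4 and 5), and neither overlapped a peak of the unfiltered mutant list. The same limit left 0 mutant peaks in the window, so the 0 shared mutant peaks followed from the empty list. The shares on X at this limit were not computed. The median wild-type density became 13.2 RPKM without peak 7 (added after seeing the data). Relative to tags inside arm peaks instead of all filtered tags, the median densities became 146 in wild type and 301 in the mutant, and the density ratios 2.28 at peak 2 and 2.14 at peak 3, since a smaller share of mutant tags lay in peaks. Over the wild-type length the ratio at peak 2 was 0.893. No paired analysis was possible because each genotype has a single list with nothing for single replicates, and for the same reason no replicate was left out. The depth of 10060479 mutant tags limits what can be called absent.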

Other observations

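The contrast of peaks 3 and 4, in which the weaker of a pair of close neighbours had the mutant peak, was looked for elsewhere after their values were seen. On the chromosome arms 185 pairs of neighbouring wild-type Bcd peaks had summits at most 5 kb apart and exactly 1 shared member. The shared member had the lower fold in 57 of them, or 30.8%, the higher fold in 127 and an equal fold in 1. On X the shared member was the lower one in 12 of 30 pairs. The order seen at peaks 3 and 4 was thus the less frequent one, and not rare. This was not tested.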
